A study of Rattus norvegicus with 63 samples.

Results

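The miR-30 family was followed across all treated and vehicle-treated rat livers of a toxicogenomics study of hepatocarcinogens. Members were the array entries named rno-miR-30a, rno-miR-30b-5p, rno-miR-30c, rno-miR-30d and rno-miR-30e (here without the species prefix), excluding the starred names that mark the other arm of each precursor. These were 5 of the 350 rat miRNAs on the array, and all 5 were among the 162 miRNAs detected on at least 1 array and therefore tested. A miRNA is a short RNA that guides an Argonaute protein to messenger RNAs through pairing with its seed, the bases from position 2 to position 8, and represses them. The miR-30 family is abundant in epithelia such as liver and kidney. Its known targets include Ctgf, which encodes a growth factor that promotes matrix deposition, Snai1, which encodes a repressor of epithelial genes, and Becn1, which encodes an initiator of autophagy.

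Mature sequences were found for 3 of the 5 members in RefSeq (build GRCr8). They are shown because these members share a seed and differ only behind it, so an array probe has few bases with which to separate them. The capitals mark the seed.
miR-30a: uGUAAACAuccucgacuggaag
miR-30c: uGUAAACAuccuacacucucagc
miR-30e: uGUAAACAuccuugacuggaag
Counted from 1 at the 5′ end, miR-30a and miR-30e were identical over 22 bases except for C13U, with the miR-30a base first. miR-30a and miR-30c shared their first 12 bases and differed at C13A, G14C, G18C, G19U and A20C. miR-30a lies on the plus strand at chr9:33233946-33233967. miR-30c is encoded at 2 loci, at chr5:139634505-139634527 on the minus strand and at chr9:33253695-33253717 on the plus strand. miR-30e lies on the minus strand at chr5:139637504-139637525. The hairpins Mir30c1 and Mir30e are 2906 bases apart and both lie within the bounds of Nfyc, the gene of a subunit of the transcription factor NF-Y. The hairpins Mir30a and Mir30c2 are 19670 bases apart. Among array names with a RefSeq sequence, 1 further miRNA had this seed, and it was detected on 0 of 63 arrays.
miR-384-5p: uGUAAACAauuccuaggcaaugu

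The livers came from male Wistar Hanover rats, 8 to 10 weeks old at the start, which were given, by gastric gavage, a compound or the vehicle alone. Each of the 21 groups held 3 rats and each rat gave 1 array. Per the study's methods, treated rats were picked from larger groups because their livers showed histopathological change, so they were not random samples of the dosed rats. The 8 non-genotoxic carcinogens (NGC) were phenobarbital sodium (PB, 14 days, dose not given in the labels), piperonylbutoxide (PBO, 1200 mg/kg/d, 3 days), dehydroepiandrosterone (DHEA, 600 mg/kg/d, 14 days), acetamide (AA, 3000 mg/kg/d, 14 days), methapyrilene HCl (MPy, 60 mg/kg/d, 7 days), methylcarbamate (Mcarb, 400 mg/kg/d, 14 days), diethylstilbestrol (DES, 10 mg/kg/d, 3 days) and ethionine (ETH, 200 mg/kg/d, 14 days). The 2 genotoxic carcinogens (GC) were C.I. Direct Black (CIDB, 146 mg/kg/d, 7 days) and dimethylnitrosamine (DMN, 4 mg/kg/d, 7 days). The 2 non-carcinogens (NC) were cefuroxime (CFX, 250 mg/kg/d, 14 days) and nifedipine (Nif, 3 mg/kg/d, 14 days). The 3 compounds of undefined class were cyproterone acetate (CPA, 100 mg/kg/d, 14 days), thioacetamide (TAA, 19.2 mg/kg/d, 7 days) and Wy-14643 (Wy, 60 mg/kg/d, 3 days). The controls formed 4 methylcellulose sets (MC set 1, 2, 5 and 6) and 2 corn oil sets (CO set 3 and 4), and each compound was compared with the set that its label names. MC set 1 served AA, DHEA, Mcarb, MPy, TAA and Wy, MC set 2 served CFX and Nif, MC set 5 served DES, ETH and PBO, MC set 6 served PB, CO set 3 served CIDB and DMN, and CO set 4 served CPA. The labels give 14 days for all controls except CO set 3, which has 7 days, whereas the study's methods call the controls time-matched. If the labels hold, the compound and the length of dosing cannot be told apart for the compounds given for 3 days and for MPy and TAA.

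Every member was detected, and well above local background, on 63 of 63 arrays, each by 2 probes with 20 spots. The hepatocyte miRNA miR-122 lay between 14.21 and 14.70 on the log2 scale on all arrays, and the number of arrays limits the precision. The quantile normalization used here gives all arrays the same distribution of brightness. It limits how far so bright a miRNA can move, so this range is no check of the livers. Arrays were read on 3 scan days and 9 slides. The median brightness of an array was 193.5 to 243.5 on scan day 1, 140 to 153.5 on scan day 2 and 75 to 78 on scan day 3, and TAA, Wy and DES had no array on a scan day of their controls. Among the columns of the deposited log2 values, 48 of 63 followed the array of their own sample and 15 followed another sample's array, namely those of DES and DHEA, which were exchanged, and those of MC sets 1, 2 and 5. Which of the 2 assignments is right was not settled, and the values below use the arrays under their own labels unless stated. All values are log2 levels after quantile normalization without background correction. For the members, the part of a spot's brightness left after the scanner software's background correction was 39.6% to 57.2% as a median over arrays, so fold changes on this scale understate those of the corrected signal.

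For rno-miR-30a the group means ran from 8.37 in ETH to 8.62 in MC set 2. For rno-miR-30b-5p they ran from 8.37 in DMN to 8.73 in MC set 2, and for rno-miR-30c from 7.91 in DMN to 8.24 in MC set 1. For rno-miR-30d they ran from 7.98 in ETH to 8.40 in Wy, and for rno-miR-30e from 8.11 in CIDB to 8.38 in Wy. The low ends were held by ETH and by the 2 genotoxic carcinogens, and the high ends by methylcellulose controls for 3 members and by Wy for 2. Both genotoxic carcinogens were given in corn oil, and corn oil controls were low as well. For miR-30b-5p, CO set 3 (8.38) and CO set 4 (8.43) came directly after DMN, and for miR-30c CO set 4 (7.99) did. The part of vehicle and scan day in this order was not tested. When the 21 groups were ordered by mean, neighbours overlapped in range at 20 of 20 steps for miR-30a, miR-30b-5p and miR-30e. They overlapped at 19 of 20 steps for miR-30c and miR-30d. The exceptions were the lowest steps, from DMN to CO set 4 for miR-30c and from ETH to DMN for miR-30d, and their differences were not tested. The standard deviation of the 21 group means was 0.065 for miR-30e, 0.076 for miR-30a, 0.085 for miR-30c, 0.096 for miR-30d and 0.112 for miR-30b-5p, all below the median of 0.113 over the 71 miRNAs detected on every array. Among all 162 tested miRNAs, most of which were not detected on every array, the members ranked 95 to 123 from the least variable.

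**Figure D1:**
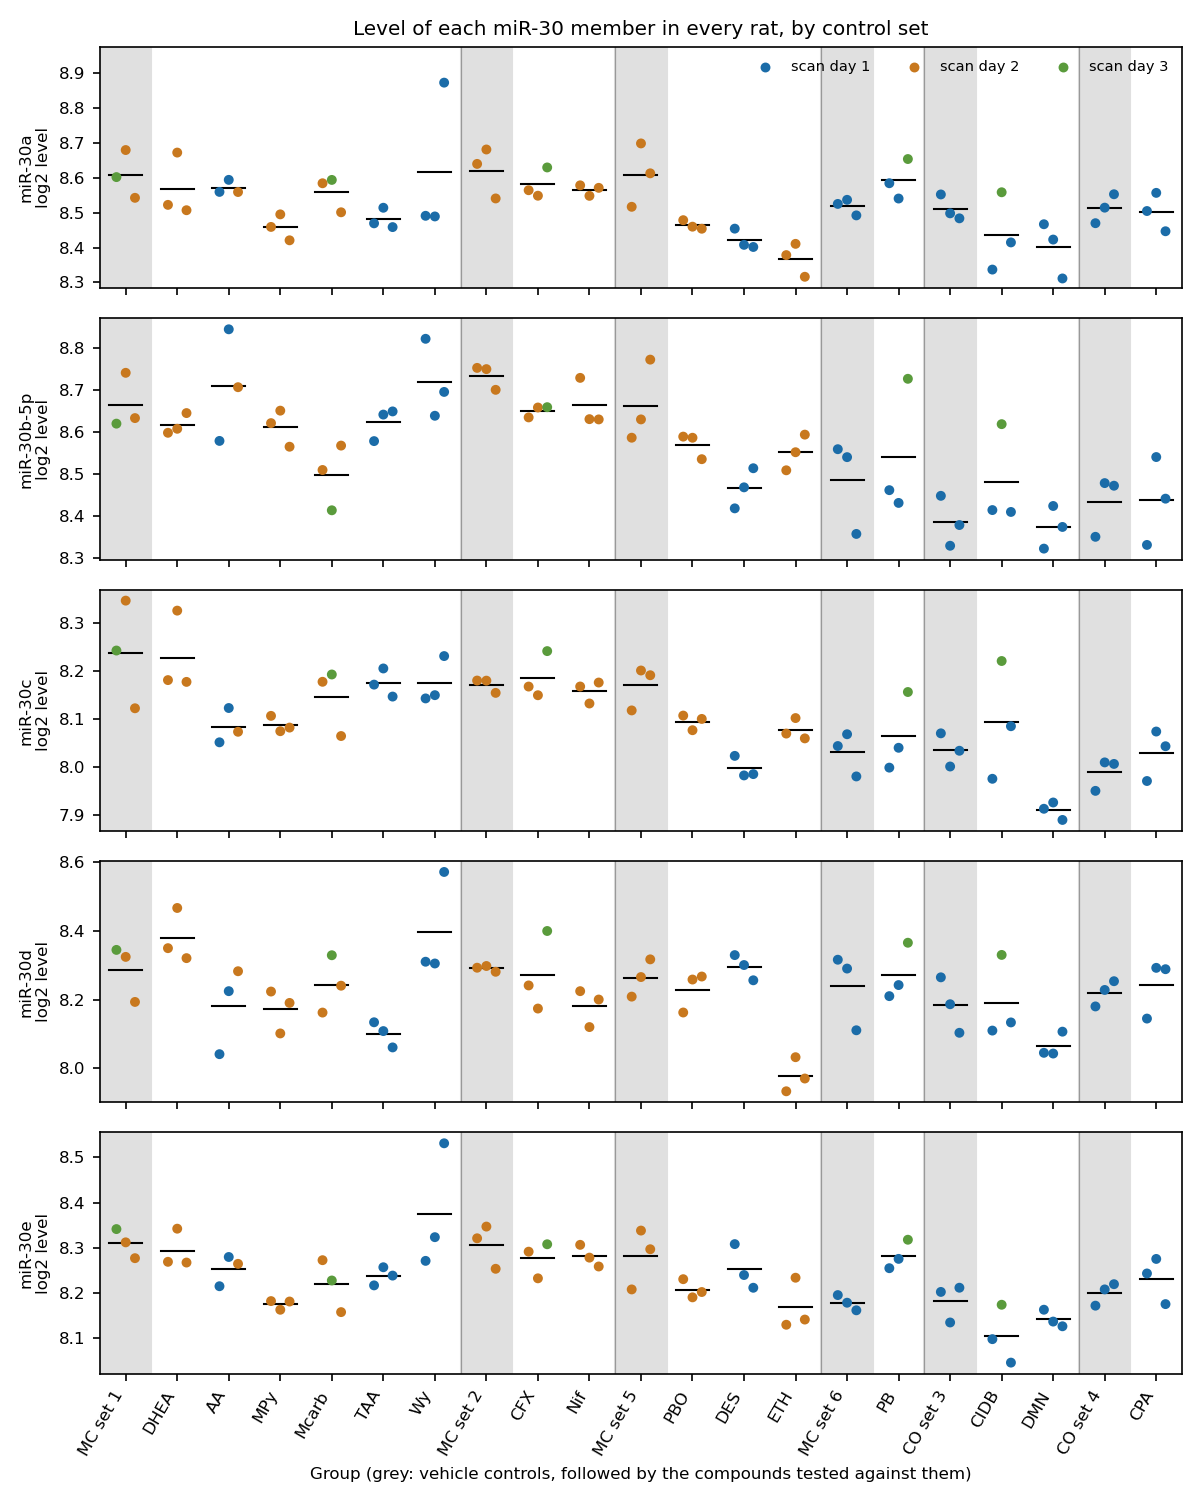
Level of each member (log2, vertical axis) in each of the 63 rats, with the 21 groups on the horizontal axis arranged as control set (grey) followed by its compounds; points are rats coloured by scan day and bars are group means of 3 rats. The 3 ETH rats lie lowest for miR-30d (7.93 to 8.03), and the third Wy rat stands above the other two for miR-30a (8.87 against 8.49 and 8.49).

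Against their control sets, members were called lower or did not pass the test in the 15 compounds. Over 75 comparisons of 1 member in 1 compound, 11 were called lower at a Benjamini-Hochberg adjusted p under 0.05 in limma, beside 6.71% of all 2430 comparisons of tested miRNAs. None was called higher, beside 7.57% of all comparisons, and at an unadjusted p under 0.05 there were 18 lower and 1 higher. The difference was below 0 in 55 of 75 comparisons, and its median was -0.05 beside 0.00 over all tested miRNAs. The 3 treated rats all lay below the 3 controls in 20 of 75 comparisons (15.4% of all comparisons) and all above in 2 of 75 (14.2%). Comparisons that share a control set share its rats, as the 6 compounds of MC set 1 and the 3 of MC set 5 do. The calls lay in 6 compounds, ETH, DES, MPy, AA, DMN and TAA, and the sizes were small, the largest being a fall by 18.0% for miR-30d in ETH. The absence of higher calls depended on the controls, the model and the scaling. In Wy, miR-30d was called higher with scan day as a block (0.24), and miR-30e against all controls of the vehicle (0.11) and without Wy replicate 1 (0.12). When the arrays were instead given a common 75th percentile of processed signal over the miRNAs detected on all of them, 7 comparisons were called lower and 5 higher, namely miR-30b-5p and miR-30c in CIDB, miR-30d in DHEA, and miR-30d and miR-30e in Wy. That scaling moved the median of all tested miRNAs to 0.31 in CIDB, 0.12 in DHEA and 0.16 in Wy. The deposited log2 values gave 10 lower and 2 higher, miR-30b-5p and miR-30c in CIDB. These were not all the same calls. When the arrays were processed as here but assigned as in the deposited values, the calls in DES, MPy, AA and TAA were lost. The arrays labelled DES and MC set 5 then stand for DHEA and its control set, MC set 1. The 3 lower calls reported here for DES thus stood unchanged under DHEA. The calls of miR-30d and miR-30a in ETH held. Of the 20 comparisons in PB, CIDB, DMN and CPA, in which every deposited column follows its own array, 1 was called lower (32 of 648 comparisons for all tested miRNAs).

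**Figure D2:**
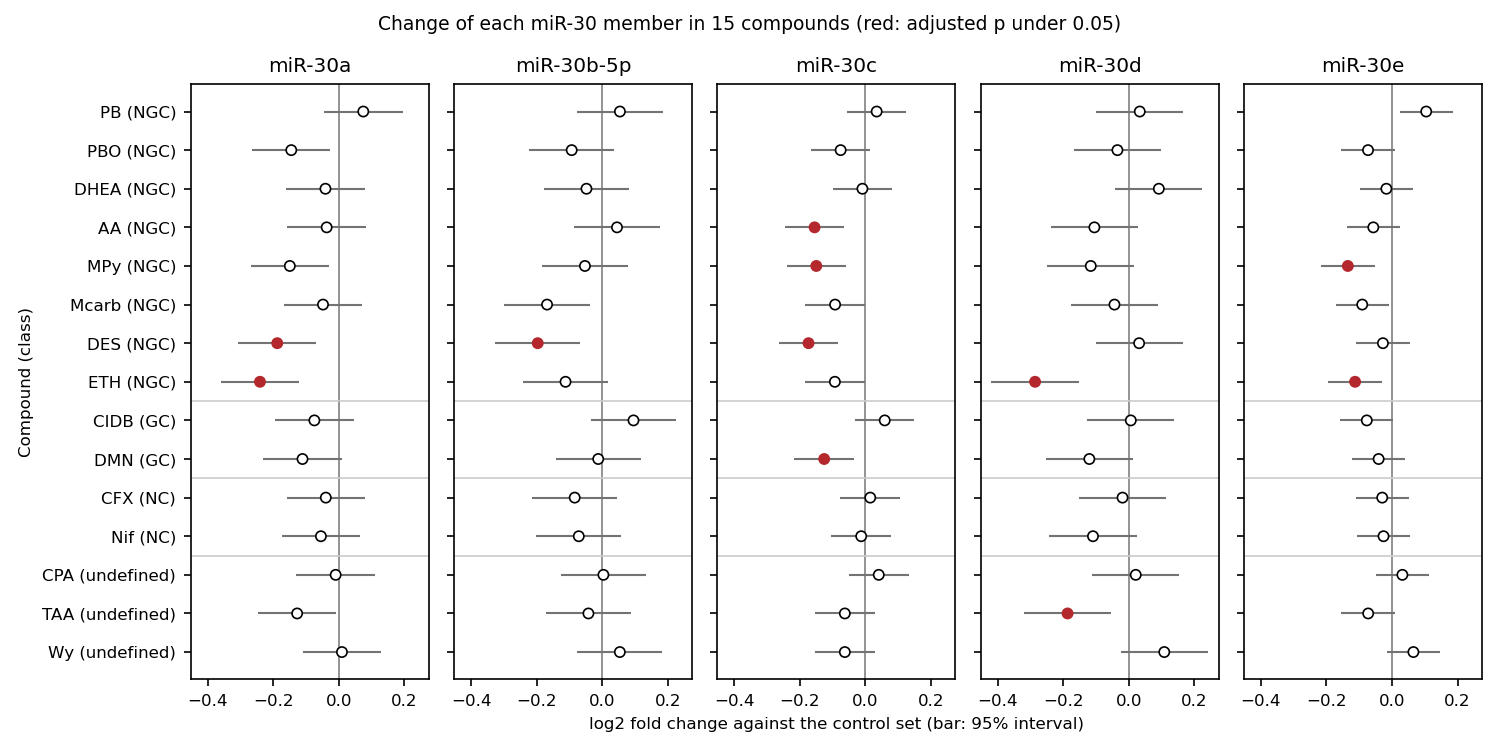
Log2 fold change of each member (horizontal axis, 1 panel a member) in each of the 15 compounds (vertical axis, with class), with bars for the 95% confidence interval from limma and 3 rats against 3 controls; filled red points have an adjusted p under 0.05. All 11 filled points lie to the left of 0, in ETH, DES, MPy, AA, DMN and TAA.

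Ethionine, an analogue of methionine that depletes the liver of S-adenosylmethionine and ATP, went with lower levels of 3 of the 5 members, beside 9.88% of all tested miRNAs lower and 6.17% higher. The log2 level of miR-30d was 7.93, 8.03 and 7.97 in the 3 ETH rats and 8.21, 8.27 and 8.32 in the 3 rats of MC set 5. All treated rats thus lay below all controls, and the fall was -0.29 (SE 0.07, adjusted p = 0.00174 in limma), or 18.0% on this scale. The log2 level of miR-30a was 8.38, 8.41 and 8.32 in ETH and 8.52, 8.70 and 8.61 in MC set 5, again without overlap. Its difference was -0.24 (SE 0.06, adjusted p = 0.00334). miR-30e was 8.13, 8.23 and 8.14 against 8.21, 8.34 and 8.30. These ranges overlapped, and its difference was -0.11 (SE 0.04, adjusted p = 0.0491). The remaining members were also below 0, miR-30b-5p at -0.11 (adjusted p = 0.278) and miR-30c at -0.09 (adjusted p = 0.167), and did not pass.

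The 2 probes of miR-30d gave -0.27 and -0.31 in ETH and those of miR-30a -0.21 and -0.27, so both probes of each saw the fall. ETH and MC set 5 were read on the same scan day but on different slides, slide 7 and slides 5 and 6. When arrays were assigned as the deposited log2 values have them, the control arrays of ETH lay on slide 7 as well, and the differences were -0.31 for miR-30d (adjusted p = 4.73e-04) and -0.25 for miR-30a (adjusted p = 0.00154). These are the 3 arrays labelled MC set 2, which lay between 8.28 and 8.30 for miR-30d. miR-30d kept its call in 12 of 13 other processings and in 6 of 6 fits that left out 1 rat (-0.31 to -0.26). miR-30a kept it in 11 of 13 and in 6 of 6 (-0.29 to -0.20). The exceptions were slide as a fixed block (-0.17 for miR-30d and -0.13 for miR-30a, adjusted p = 0.871 and 0.944) and, for miR-30a, the 75th percentile over all probes (-0.48, adjusted p = 0.0774). The size moved more than the call, and the deposited log2 values gave -0.92 for miR-30d and -0.56 for miR-30a. miR-30e held in 2 of 6 fits with 1 rat left out, losing its call without ETH replicate 1 or 3 or MC set 5 replicate 8 or 9.

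Markers of cell types moved in the same ETH livers. Of the hepatocyte list, miR-192 (-0.66) and miR-194 (-0.55) fell and miR-122 did not pass (0.00), 2 of 3 tested. The normalization limits how far the bright miR-122 can move. Of the leukocyte list 3 of 5 rose, miR-142-3p (0.32), miR-142-5p (0.09) and miR-146a (0.23), and the summed linear level of the list was 1461 to 1502 in ETH against 1291 to 1316 in the controls. Of the stellate and smooth muscle list 1 of 4 rose, miR-143 (0.19), with summed levels of 1065 to 1163 against 974 to 1043, and the defining marker miR-145 was detected on 0 arrays. The endothelial (0 of 2) and erythroid (0 of 2) lists had no call. The part of these markers in the fall of miR-30a and miR-30d was not tested, and in whole liver fewer cells of a type and less RNA per cell cannot be told apart.

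Diethylstilbestrol, a synthetic oestrogen, gave lower calls for 3 members, with 16% of all tested miRNAs lower and 37% called in either direction. miR-30c was 8.02, 7.98 and 7.98 in the 3 rats labelled DES and 8.12, 8.20 and 8.19 in MC set 5 (-0.17, SE 0.05, adjusted p = 0.00278). miR-30b-5p was 8.42, 8.47 and 8.51 against 8.59, 8.63 and 8.77 (-0.20, SE 0.06, adjusted p = 0.0157). miR-30a was 8.45, 8.41 and 8.40 against 8.52, 8.70 and 8.61 (-0.19, SE 0.06, adjusted p = 0.0128). For each of these members the groups did not overlap. miR-30d (0.03) and miR-30e (-0.03) did not pass. The 2 probes differed for all 3 called members, at -0.05 and -0.30 for miR-30c, -0.11 and -0.28 for miR-30b-5p and -0.10 and -0.28 for miR-30a.

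These DES values rest on arrays whose labels are in doubt and which share no scan day with their controls. With arrays assigned as in the deposited log2 values, so that those labelled DHEA stand for DES, the differences were 0.057 for miR-30c, -0.12 for miR-30b-5p and -0.05 for miR-30a, with adjusted p = 0.459, 0.24 and 0.626. With scan day as a block they were -0.12, -0.03 and -0.14, with adjusted p = 0.263, 0.874 and 0.338. The call of miR-30a was also lost without MC set 5 replicate 8, and that of miR-30b-5p without DES replicate 1 or MC set 5 replicate 9. Leukocyte markers moved the other way here than in ETH, with miR-142-3p (-0.52) and miR-142-5p (-0.08) lower, 2 of 5, and a summed level of 1119 to 1205 against 1291 to 1316. miR-192 was higher (0.26), 1 of the 3 hepatocyte markers, beside 21% of all tested miRNAs. The stellate and erythroid lists had no call, while miR-126* was lower, 1 of 2 endothelial markers. The part of scan day and of these markers was not tested.

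**Figure D3:**
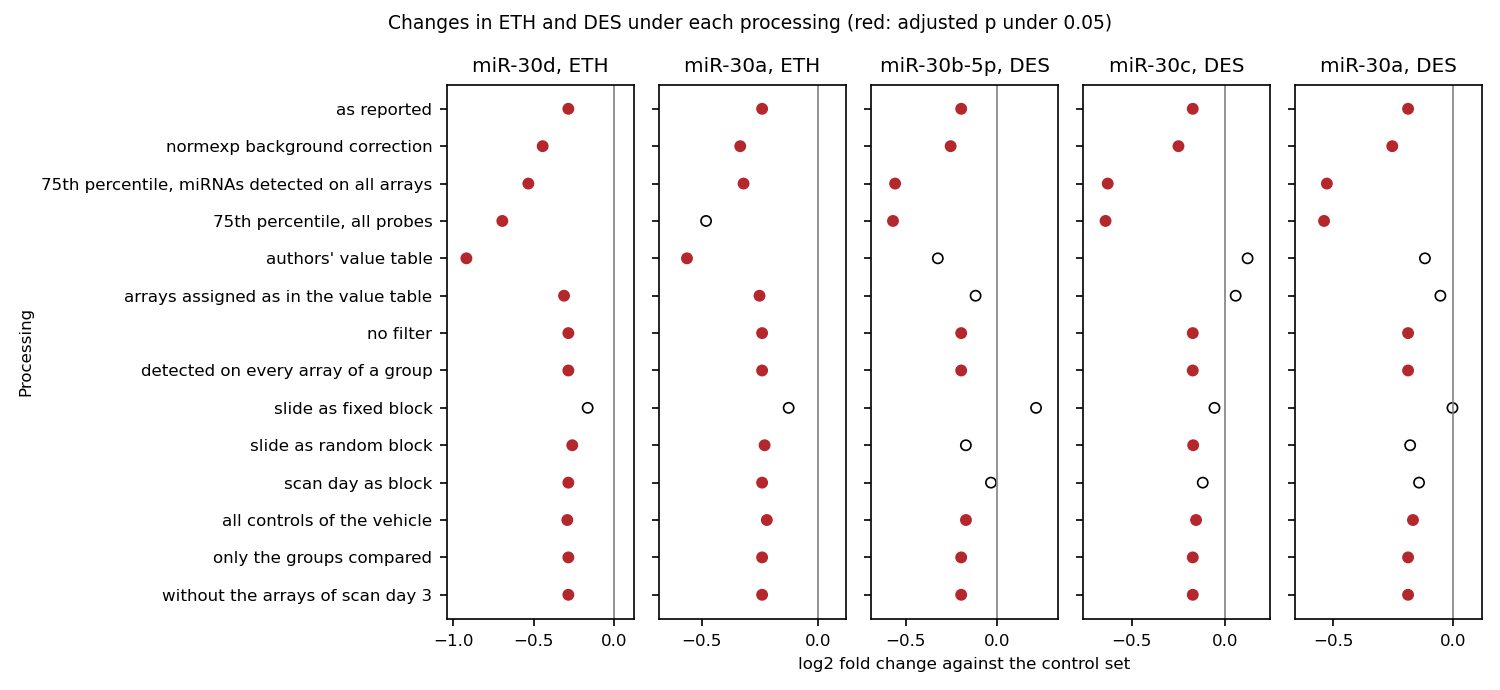
Log2 fold change (horizontal axis, its range set per panel) of the 5 non-overlapping calls in ETH and DES under the processing reported here and 13 others (vertical axis); filled red points have an adjusted p under 0.05. miR-30d in ETH stays below 0 under every processing, from -0.92 to -0.17, whereas miR-30c in DES turns to 0.12 with the deposited log2 values and 0.057 with their assignment of arrays.

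Outside ETH and DES the calls were single or double. Methapyrilene, an antihistamine that injures the periportal liver, went with lower miR-30c and miR-30e, with 10.5% of tested miRNAs lower. miR-30c was 8.11, 8.07 and 8.08 in MPy and 8.24, 8.35 and 8.12 in MC set 1 (-0.15, SE 0.05, adjusted p = 0.0111). miR-30e was 8.18, 8.16 and 8.18 against 8.34, 8.31 and 8.28 (-0.13, SE 0.04, adjusted p = 0.0111). The groups did not overlap for either member, nor for miR-30a, which was at -0.15 and did not pass (adjusted p = 0.0721). The 2 probes gave -0.09 and -0.21 for miR-30c and -0.11 and -0.16 for miR-30e. Within scan day 2, with 3 treated and 2 control arrays, the differences were -0.15 for miR-30c and -0.12 for miR-30e. miR-30c lost its call without MC set 1 replicate 5, and miR-30e without replicate 4. With the deposited assignment of arrays they were at -0.083 (adjusted p = 0.26) and -0.11 (adjusted p = 0.0807). Among hepatocyte markers 1 of 3 was lower, miR-194 (-0.32), and no leukocyte or stellate marker was called.

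In AA miR-30c alone was called lower, with 5.56% of tested miRNAs lower. The member was at 8.05, 8.12 and 8.07 in AA against 8.24, 8.35 and 8.12 in MC set 1, ranges that just met (-0.16, SE 0.05, adjusted p = 0.016). The call was lost without AA replicate 1, MC set 1 replicate 4 or MC set 1 replicate 5, and against all methylcellulose rats the difference was -0.07 (adjusted p = 0.238). With the deposited assignment of arrays it was -0.088 (adjusted p = 0.408). The 2 probes of miR-30c gave -0.10 and -0.21 in AA. Of the stellate list 1 of 4 was higher in AA, miR-143 (0.18), beside 8.02% of all tested miRNAs. Dimethylnitrosamine, which is activated to a DNA-methylating agent, went with lower miR-30c as well, with 9.88% of tested miRNAs lower and 23.5% called in either direction. The values were 7.91, 7.93 and 7.89 in DMN and 8.07, 8.00 and 8.03 in CO set 3 (-0.13, SE 0.05, adjusted p = 0.0368), all on scan day 1 and without overlap. The 2 probes of miR-30c gave -0.02 and -0.23 in DMN, so the fall came mostly from 1 of them. All 3 DMN arrays lay on slide 2 and all 3 of CO set 3 on slide 3, so compound and slide cannot be told apart within this comparison, and with slide as a fixed block over all arrays the difference was -0.016 (adjusted p = 0.971). The call held in 8 of 13 other processings and in 1 of 6 fits with 1 rat left out, the one without CO set 3 replicate 5. In DMN, 4 of 5 leukocyte markers were higher, led by miR-142-3p (0.76), beside 13.6% of all tested miRNAs. The list's summed level was 1494 to 1899 against 1193 to 1286. Of the stellate list 3 of 4 were lower (miR-143, -0.33). Also lower were miR-122 (-0.09), 1 of 3 hepatocyte markers, and miR-126, 1 of 2 endothelial markers. The part of these markers was not tested.

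Thioacetamide, a hepatotoxicant used to produce fibrosis, went with lower miR-30d, with 11.7% of tested miRNAs lower. miR-30d was 8.13, 8.11 and 8.06 in TAA against 8.35, 8.32 and 8.19 in MC set 1, with no overlap (-0.19, SE 0.07, adjusted p = 0.0356). Both probes of miR-30d were below 0, at -0.20 and -0.17. The call held in 1 of 6 fits with 1 rat left out, the one without MC set 1 replicate 6. The TAA arrays were all on scan day 1 and their controls were not, and with scan day as a block the difference was -0.059 (adjusted p = 0.692). With the deposited assignment of arrays it was -0.16 (adjusted p = 0.123). The 3 TAA rats also lay below the controls for miR-30a (-0.13, adjusted p = 0.114) and miR-30e (-0.07, adjusted p = 0.199), which did not pass. In TAA, miR-143 was lower (-0.19), 1 of 4 stellate markers, and no hepatocyte or leukocyte marker was called.

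In the other 9 compounds limma called no member, which does not show that they were unaffected. Piperonylbutoxide, an inhibitor of cytochrome P450, had all 5 members below 0 (-0.14 to -0.03), with 3.7% of tested miRNAs lower and 4.94% higher, and its rats did not overlap the controls for miR-30a (adjusted p = 0.112) and miR-30c (adjusted p = 0.276). Only miR-30a had an unadjusted p under 0.05 among them. Methylcarbamate likewise had all 5 below 0 (-0.17 to -0.04), with 0.617% of tested miRNAs lower and 1.23% higher, and 3 of them had an unadjusted p under 0.05. Its rats all lay below the controls for miR-30b-5p (-0.17, 95% interval -0.30 to -0.04) and miR-30e (-0.09). Neither compound had a call, and both share control rats with called compounds. Members lay below 0 in the non-carcinogens as well, 5 of 5 in Nif and 4 of 5 in CFX. The Nif rats all lay below their controls for miR-30d, and the CFX rats for miR-30b-5p.

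Phenobarbital, which activates the nuclear receptor CAR, had all 5 members above 0 (0.03 to 0.10), with 2.47% of tested miRNAs higher and 0.617% lower, and 1 member with an unadjusted p under 0.05. Its largest value was miR-30e, at 8.25, 8.28 and 8.32 in PB against 8.20, 8.18 and 8.16 in MC set 6 (0.10, 95% interval 0.02 to 0.19, adjusted p = 0.196). Within scan day 1, with 2 treated and 3 control arrays, miR-30e was at 0.09 and miR-30b-5p, miR-30c and miR-30d were at -0.04, -0.01 and -0.01, so that the sign of these 3 turned without the PB array of scan day 3. In CPA, a synthetic progestin, the members lay between -0.01 and 0.04, with 1.85% of tested miRNAs lower and 3.7% higher. Here both groups were read on slide 1.

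DHEA, a steroid that acts as a peroxisome proliferator in rats, had members between -0.05 and 0.09, with 8.64% of tested miRNAs lower and 9.88% higher. As with DES, the labels of these arrays are in doubt. With the deposited assignment of arrays, DHEA takes the values reported here for DES. Then miR-30a (-0.19), miR-30b-5p (-0.20) and miR-30c (-0.17) were called lower in DHEA. CIDB, a benzidine-based azo dye, had members between -0.08 and 0.10, with 7.41% lower and 13% higher (20.4% in either direction). In CIDB the replicate of scan day 3 was the highest of the group for every member, at 8.62 for miR-30b-5p against 8.41 and 8.41 in the other rats, and without the arrays of scan day 3 the difference of miR-30b-5p was 0.03 and not 0.10. With the common 75th percentile of processed signal it was 0.75 (adjusted p = 3.09e-04), and the deposited log2 values gave 0.71 (adjusted p = 0.00200). In Wy, an agonist of the receptor PPAR-alpha, members lay between -0.06 and 0.11, with 14.2% lower and 11.7% higher (25.9% in either direction). The third Wy rat stood apart for miR-30a, miR-30d and miR-30e, and without it their differences were -0.12, 0.02 and -0.01 in place of 0.01, 0.11 and 0.07. For the non-carcinogens CFX, an antibiotic, and Nif, a calcium channel blocker, members lay between -0.08 and 0.01 and between -0.11 and -0.01, and 0% of tested miRNAs were called. With arrays under their own labels, no member had an unadjusted p under 0.05 in limma in DHEA, CIDB, Wy, CPA, CFX and Nif.

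The study set carcinogens against non-carcinogens and the 2 kinds of carcinogen against each other, so the members were compared between these classes with the compound as the unit. Both GC shared the rats of CO set 3, and both NC shared those of MC set 2. Class therefore cannot be told apart from control set, nor GC from corn oil. Compounds that share a control set are not independent, whereas the permutation treats them as if they were. The mean log2 fold change over the 8 NGC was -0.10 for miR-30a, -0.07 for miR-30b-5p, -0.09 for miR-30c, -0.05 for miR-30d and -0.05 for miR-30e. Over the 2 GC it was -0.09, 0.04, -0.03, -0.06 and -0.06, and over the 2 NC it was -0.05, -0.08, 0.00, -0.06 and -0.03 in the same order. The 15 class differences ran from -0.11 to 0.03, and their two-sided exact permutation p ran from 0.178 to 0.978, where the smallest p possible is 0.0222 for NGC against GC or NC. None passed limma over all tested miRNAs with the compound as the unit (adjusted p from 0.569 to 0.985). With 2 compounds in GC and 2 in NC, this does not show that the classes are alike. The smallest exact p was shared by miR-30b-5p between NGC and GC (-0.11) and miR-30c between NGC and NC (-0.09). The former was -0.67 (exact p = 0.0222, limma adjusted p = 0.189) with the common 75th percentile and -0.75 (exact p = 0.0444, limma adjusted p = 0.217) with the deposited log2 values, so it was not called after adjustment under either. By class, 9 of 40 comparisons were called lower in NGC, 1 of 10 in GC, 0 of 10 in NC and 1 of 15 in the undefined compounds, beside 90 of 1296, 28 of 324, 0 of 324 and 45 of 486 for all tested miRNAs.

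The difference between 2 members was tested in every compound, 150 pair comparisons, of which 17 were called after adjustment over all tested miRNAs (27 at an unadjusted p under 0.05). When every tested miRNA was set against 1 member, 12.4% of comparisons were called for miR-30b-5p, 23.8% for miR-30c, 14.5% for miR-30d and 19.5% for miR-30e as reference. The share of called pairs of members was below each of these, so the pairs are given as values of the members and not as a property of the family. In ETH, miR-30d fell more than miR-30c by 0.19 (SE 0.05, adjusted p = 0.00112), more than miR-30b-5p by 0.17 (SE 0.07, adjusted p = 0.0205) and more than miR-30e, with a difference of -0.17 (SE 0.05, adjusted p = 0.0166). In ETH too, miR-30a fell more than miR-30e (-0.13, SE 0.04, adjusted p = 0.0112), from which it differs by 1 base, and more than miR-30c (-0.15, SE 0.04, adjusted p = 0.0168). Cross-hybridisation between probes of members was not tested. miR-30a and miR-30d had no called difference in ETH.

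In DES the log2 fold changes of miR-30a, miR-30b-5p and miR-30c were each below that of miR-30d. The differences were -0.22 (adjusted p = 0.0121), -0.23 (adjusted p = 0.0263) and -0.21 (adjusted p = 0.00868). Those of miR-30a and miR-30c were also below that of miR-30e (-0.16, adjusted p = 0.00235, and -0.15, adjusted p = 0.00774). These DES differences rest on arrays whose labels are in doubt and which share no scan day with their controls. In AA, the fold change of miR-30c was below those of miR-30a and miR-30b-5p. Their differences from it were 0.12 (adjusted p = 0.0144) and 0.20 (adjusted p = 0.00517). The other 5 called differences were 2 in CIDB, 1 in TAA and 2 in Wy. With slide, a random slide effect or scan day in the model, 1, 5 and 8 pair differences remained past the threshold in place of 17.

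The control rats show how far members moved with no compound given. MC set 6, the only methylcellulose set read on scan day 1, was lower than MC set 1 for miR-30b-5p (-0.18), miR-30c (-0.21) and miR-30e (-0.13), with 11.1% of tested miRNAs lower. It was lower than MC set 2 for the same 3 members (-0.25, -0.14 and -0.13, with 3.7% lower) and lower than MC set 5 for miR-30c (-0.14, with 3.09% lower). Corn oil controls were lower than methylcellulose controls for miR-30b-5p (-0.23, SE 0.04, adjusted p = 4.24e-05), miR-30c (-0.14, SE 0.03, adjusted p = 2.80e-04) and miR-30e (-0.08, SE 0.02, adjusted p = 0.0123), with 16% of tested miRNAs lower. These called differences between control sets (-0.25 to -0.08) overlapped in size with the called falls under compounds (-0.29 to -0.11). All corn oil arrays were read on scan day 1, and with scan day as a block limma called no member between any control sets, with 2 of 40 comparisons at an unadjusted p under 0.05, both of miR-30c. The differences between corn oil and methylcellulose were then -0.11 for miR-30b-5p, -0.09 for miR-30c and -0.05 for miR-30e, so vehicle and scan day could not be fully told apart. Among MC sets 1, 2 and 5, and between CO sets 3 and 4, limma called no tested miRNA, and no member had an unadjusted p under 0.05. miR-30a and miR-30d, the members with the largest falls in ETH, had no called difference between control sets. This does not show that they were steady. Between corn oil and methylcellulose, miR-30a was at -0.08 (adjusted p = 0.0978 in limma) and miR-30d at -0.07 (adjusted p = 0.2).

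**Figure D4:**
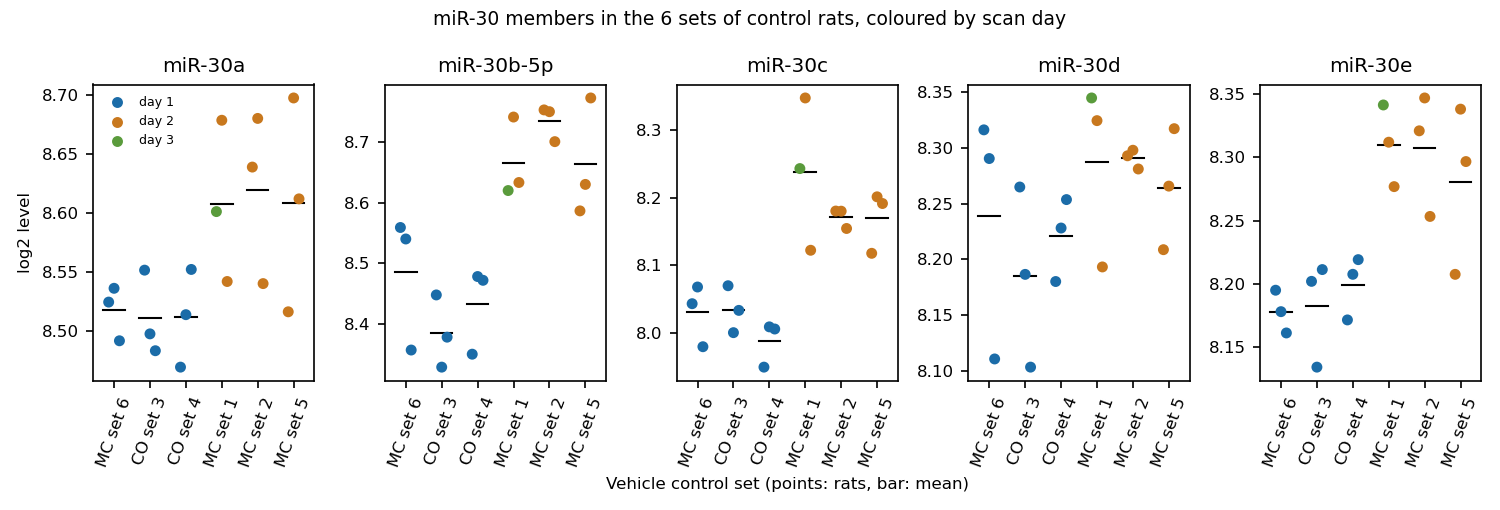
Level of each member (log2, vertical axis, its range set per panel) in the 18 control rats by set (horizontal axis); points are rats coloured by scan day and bars are means of 3. For miR-30b-5p, miR-30c and miR-30e the 3 sets of scan day 1 (MC set 6, CO set 3 and CO set 4) have lower means than the 3 sets of scan days 2 and 3.

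The other arm of each precursor, which is mostly discarded when the mature miRNA is loaded, was dim. miR-30a* was detected on 63 arrays and well above background on 49, miR-30e* on 62 and 49, miR-30b-3p on 10 and 1, and miR-30c-2* on 3 and 0, and miR-30c-1* and miR-30d* were detected on none. Of the 60 comparisons of the 4 that were tested, 8 were called lower and 1 higher, beside 6.71% and 7.57% of all comparisons. All 8 lay in compounds set against MC set 1. miR-30a* was lower in DHEA (-0.07), AA (-0.11), MPy (-0.14), TAA (-0.12) and Wy (-0.10), and miR-30e* in AA (-0.09), MPy (-0.10) and TAA (-0.08). The one higher call was miR-30b-3p in DES (0.03), at the edge of detection. In ETH, where miR-30a and miR-30e were called lower, and in DES, where miR-30a was, miR-30a* and miR-30e* had no call. MC set 1 replicate 5 was the highest of its set, at 7.83 for miR-30a* against 7.75 and 7.66, and without it miR-30a* lost its calls in DHEA and AA and miR-30e* in AA and TAA. The call of miR-30a* in DHEA was lost in all but 1 of 6 fits with 1 rat left out and kept in 2 of 13 other processings. With the deposited assignment of arrays the count of lower calls was 1.

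Members followed each other across rats. After the mean of each scan day was subtracted, Pearson's r between members over the 63 arrays ran from 0.38 for miR-30b-5p with miR-30d to 0.80 for miR-30a with miR-30e. These points share their arrays, and members share sequence, so the values are a description. Among the other miRNAs detected on every array, the 5 whose pattern was most like the members, by mean r with the 5 members over the 63 arrays, were miR-194 (0.70), miR-26a (0.57), miR-378 (0.50), miR-193 (0.42) and miR-192 (0.33). miR-194 and miR-192 are hepatocyte miRNAs encoded together. In ETH, miR-194, miR-192, miR-193 (-0.46) and miR-26a (-0.27) were lower than in MC set 5, and miR-378 was at -0.17 (adjusted p = 0.101). In DES, miR-26a was lower (-0.28) and miR-192 higher (0.26), and in DMN miR-26a was lower (-0.32). These 5 miRNAs were chosen by their likeness over the same 63 arrays, so shared falls follow in part from the choice. The DES values rest on the arrays whose labels are in doubt. In the other compounds with member calls miR-26a did not pass, at 0.048 in AA, -0.18 in MPy and -0.14 in TAA.

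The list of other miRNAs known as brakes on matrix genes or on loss of epithelial character (miR-29, miR-133, miR-141, miR-200 and miR-429, 10 on the array) is given beside the family, with no test of a difference from it. Of its 8 tested members limma called none lower in any compound, with miR-200c in PBO and miR-29c in Mcarb, ETH and TAA below 0 at an unadjusted p under 0.05. Called higher were 5 in PBO (4.94% of all tested miRNAs) and in CIDB (13%), 4 in DES (21%), 3 in PB (2.47%), 2 in CPA (3.7%) and 1 in DHEA (9.88%), and 0 in the other 9 compounds, ETH among them, where its median difference was 0.08. In PBO, miR-29b was higher by 0.78 and miR-200b by 0.69. In DES, miR-29a (0.30), miR-29b (0.39), miR-29c (0.24) and miR-429 (0.08) were called higher on the arrays labelled DES, whose labels are in doubt.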

How the data were processed

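The deposited scanner files give each spot's mean intensity, local background and processed intensity from Agilent Feature Extraction, and the authors' table gives log2 values which, per the methods, were made with the RMA variant of AgiMicroRna without background correction. From the mean intensity, outlier spots were removed (2.87% of spots), and arrays were quantile normalized, averaged over the spots of a probe, taken to log2 and summarised over probes by median polish. limma 3.58.1 in R 4.3.3 fitted all 63 arrays in 21 groups. Each compound was compared with its labelled control set (3 against 3 rats), and p-values were adjusted by Benjamini-Hochberg over the 162 miRNAs detected on at least 1 array and called under 0.05. Class differences used exact permutation over compounds. Pair differences came from the same fit after 1 member was subtracted from every miRNA. The fit was tested on simulated data. The deposited intensity and log2 values of both sources were used for alternatives, which included normexp correction (offset 50), processed intensity scaled by the 75th percentile (floor 1), other filters, slide and scan day terms, other controls and leaving out each rat. The alternative without scan day 3 was chosen after seeing the data. Named were all members, their other arms, miRNAs with the same seed and the 5 most similar miRNAs, and marker miRNAs for other cell types by list. Members and lists were chosen with earlier results of these data known. Replicate numbers are shared only by PB with MC set 6 and CPA with CO set 4. Deviations of rats with the same number correlated at 0.04, -0.27 and -0.12 in PB and -0.30, -0.20 and -0.28 in CPA. Those of rats with different numbers correlated at -0.21 to 0.32. The numbers were therefore not used as pairs in the main fit, but 3 rats a group cannot settle whether they pair rats. Groups held 3 rats, so p-values rest on small numbers, and intensities of different miRNAs were not compared.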

Additional observations from a re-analysis of the deposited data

How the results depend on the processing

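The 11 lower calls became 7 with the processed signal at the 75th percentile of detected miRNAs, 7 with only the groups compared, 6 with scan day as a block, 3 with a random slide effect and 1 with slide as a fixed block, where slides nearly coincide with groups. Without 1 rat they ranged from 7 (MC set 1 replicate 4 or 5) to 14 (Wy replicate 3), and higher calls from 0 to 1 (Wy replicate 1). With the authors' assignment of arrays, the lower calls reported for DES, MPy, AA and TAA were lost, and those of DES stood under DHEA. The 0 higher calls became 5 with the 75th percentile of detected miRNAs, 2 in the authors' table, and 1 each with the 75th percentile over all probes, scan day as a block or all controls of the vehicle. The 75th percentile of detected miRNAs moved the median of all tested miRNAs by 0.38 in MPy and 0.31 in CIDB. The 8 lower calls of the other arms became 5 with scan day, 3 with the 75th percentile of detected miRNAs, 2 in the authors' table, 1 with its assignment of arrays and 0 with slide fixed or only the groups compared. Their 1 higher call became 2 with the 75th percentile of detected miRNAs or all controls of the vehicle and 0 under normexp, the 75th percentile over all probes, the authors' table, no filter, the stricter filter, both slide models, scan day, only the groups compared and without scan day 3. The 17 pair differences became 1 with slide fixed, 5 with random slide and 8 with scan day. The 10 calls between control sets became 6 with the 75th percentile over all probes, 3 with random slide and 0 with slide fixed or scan day. The class difference of miR-30b-5p between NGC and GC was -0.67 (75th percentile, exact p = 0.0222) and -0.75 (authors' table, exact p = 0.0444), and that of miR-30c was -0.087 with slide fixed (exact p = 0.0222). Signs turned for miR-30b-5p in DES (0.21, slide fixed), miR-30c in DES (0.12, authors' table, and 0.057, its assignment), miR-30d in TAA (0.034, slide fixed) and miR-30a* in DHEA (0.054, authors' table, and 0.024, its assignment). The replicate block in PB and CPA left 0 calls lower and 0 higher, as without it. For single members and other arms, 2346 other values stayed on their side of the threshold in the same direction, 143 lost and 43 gained a call. The causes were not tested.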
